A study of Mus musculus with 12 samples.

Results

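The dividing CD8 T cells of MCA205 tumours were chosen by the authors' expression clusters and by 3 transcripts, as the cells of cluster 4 that held more Cd8a plus Cd8b1 transcripts than Cd4 transcripts, counted as unique molecular identifiers (UMIs). They numbered 1956 of the 30749 cells in the deposited cell table, or 6.36%. Cluster 4 held 2399 cells in all, of which 410 had more Cd4 than Cd8 UMIs and 33 had equal numbers. The other 15423 cells with more Cd8 than Cd4 UMIs lay outside cluster 4 and are called other CD8 T cells here. The cluster came from the expression of these same cells, so levels that set them apart from other cells are given as a description, without a test.

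Each library came from the tumour of 1 C57Bl/6 mouse that carried MCA205, a fibrosarcoma line, after 300000 cells were put under the skin. In 3 mice an antibody neutralised ACBP, the acyl-CoA binding protein encoded by Dbi, and 3 mice were given the isotype IgG2a, both dosed at 2.5 mg/kg on alternate days, starting 2 days ahead of chemotherapy and ending on the eve of immunotherapy. All 6 mice carried the tumour and received 10 mg/kg of oxaliplatin, a platinum drug, at day 8 and 200 µg of antibody to PD-1 another 8 days later, so that no group was without chemotherapy or without PD-1 blockade. Tumours were taken 2 days after the PD-1 antibody and dissociated with enzymes, CD4+ and CD8+ cells were sorted and pooled in equal parts, and 10000 of them were loaded per mouse. Neither the age nor the sex of the mice was used here. The anti-ACBP tumours gave 392, 156 and 213 cycling CD8 T cells, and the isotype tumours gave 414, 282 and 499.

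A T cell that has met its antigen leaves rest and divides, copying its DNA in S phase and separating the copies in G2 and mitosis. Histones and replication factors are made for the first step, and the spindle, cohesin-cleaving and cytokinesis machinery for the second. In tumours, dividing CD8 T cells arise from clones that share one antigen receptor, and glucose uptake and glycolysis commonly accompany their growth. Type I interferon and oxygen shortage also act on T cells in tumours, through their own sets of target genes.

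The label was set against its markers, which took part in the choice of the cells and so describe them without testing it. A Cd8a UMI was found in 98.8% to 100% of cycling CD8 T cells across the 6 mice. Mki67, a marker of proliferation, was detected in 96.2% to 98.7% of them, Top2a, the topoisomerase of dividing cells, in 95.7% to 97.7%, Pclaf, a partner of the replication clamp, in 94.7% to 97.7%, and Hist1h1b, a linker histone, in 83.6% to 94.9%. In other CD8 T cells that the authors called G1 the same shares were 6.37% to 9.68% for Mki67, 9.06% to 15.0% for Top2a, 2.02% to 3.67% for Pclaf and 2.6% to 3.85% for Hist1h1b. With each cell thinned to 3000 UMIs, Mki67 was found in 74.0% to 85.2% of cycling CD8 T cells and in 2.65% to 6.03% of other CD8 T cells in G1.

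The lineage rule had few borderline cases. The median cell held 25 Cd8 UMIs, 1692 of the 1956 cells exceeded their Cd4 UMIs by 10 or more, 15 did so by exactly 1, and 61 cells of cluster 4 just outside the rule had 1 more Cd4 than Cd8 UMI. A Cd4 UMI was present in 5.16% of cycling CD8 T cells, and a Foxp3 UMI, from the regulatory T cell factor, in 1.79%, against 6.59% of the 410 cycling CD4 T cells.

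The libraries differed in depth along the same lines as the treatment. The median cycling CD8 T cell held 16058, 19264 and 16428 UMIs in the anti-ACBP mice, against 14797, 10310 and 10328 UMIs in the isotype mice, without overlap. The column DF1 of the deposited cell table, which no source used here explains, read FALSE in 80.6%, 24.4% and 84.0% of cycling CD8 T cells of anti-ACBP mice and in 26.3%, 9.22% and 19.2% of those of isotype mice. Over all mice it read FALSE in 39.1% of cycling CD8 T cells and in 3.24% of other CD8 T cells. Of the barcodes, 536 occurred in 2 or more libraries, among them those of 68 cycling CD8 T cells (3.48%). The part of depth and of DF1 in the results was not tested. For several gene lists tested for treatment, counts or medians are given also without the DF1 FALSE cells.

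Some defining genes of several other cell types were at 0 in the cycling CD8 T cells. Levels here are UMI counts of the cells summed per mouse, scaled to a common total (CPM). Of 18 macrophage genes, 8 had no UMI, including Lyz2, Adgre1 and C1qa, and the list summed to 265 to 344 CPM in anti-ACBP mice and 293 to 336 CPM in isotype mice. Of the 18, 4 had enough UMIs for the treatment test, and which cells their transcripts came from was not tested. Of 12 B cell genes, 6 had no UMI, including Ms4a1, and the list summed to 2.06 to 2.29 CPM in anti-ACBP mice and 1.23 to 2.59 CPM in isotype mice. Of 10 neutrophil genes, 4 had no UMI, among them S100a9, and the list summed to 0.802 to 1.03 CPM in anti-ACBP mice and 0.324 to 0.616 CPM in isotype mice. Of 18 tumour and stroma genes, 10 had no UMI, including Col1a2, Col3a1 and Sparc. The list still summed to 4288 to 4775 CPM in anti-ACBP mice and 3597 to 4449 CPM in isotype mice, most of it from Vim, an intermediate filament, and Thy1, a surface protein of T cells. Vim had 3361, 2919 and 3297 CPM in anti-ACBP mice and 2302, 2628 and 3094 CPM in isotype mice, and Thy1 had 1388, 1367 and 1388 CPM in anti-ACBP mice and 1303, 1477 and 1457 CPM in isotype mice. The 16 dendritic cell genes, many of which T cells also transcribe, summed to 322 to 390 CPM in anti-ACBP mice and 238 to 324 CPM in isotype mice, with Flt3, Clec9a, Cd209a and Fscn1 at 0.

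Markers of other T cells were present. The 13 regulatory T cell genes summed to 2078 to 2491 CPM in anti-ACBP mice and 2096 to 2836 CPM in isotype mice, and the 18 genes of NK and innate-like T cells to 1376 to 1734 CPM in anti-ACBP mice and 1081 to 1814 CPM in isotype mice. The 11 conventional CD4 genes summed to 293 to 390 CPM in anti-ACBP mice and 194 to 304 CPM in isotype mice. Cd4 itself, which the lineage rule used, had 8.65, 5.25 and 5.79 CPM in anti-ACBP mice and 14.4, 13.8 and 12 CPM in isotype mice, without overlap (log2 fold change -0.96 ± 0.22 SE, adjusted p = 0.047, edgeR). It did not pass in DESeq2 (-0.98) or without the DF1 FALSE cells (-0.94). A Cd4 UMI was found in 4.34%, 2.56% and 3.29% of cycling CD8 T cells of anti-ACBP mice and in 6.52%, 6.38% and 5.61% of those of isotype mice. With cells that held a Cd4 UMI or fewer than 2 Cd8 UMIs left out, 108 genes passed the treatment test described below, against 133 with them.

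The transcripts that set cycling CD8 T cells apart were those of the division machinery. Of 81 genes of mitosis and cytokinesis, 80 were higher than in other CD8 T cells in every mouse, with a median log2 ratio of 3.52. Of 43 replication-dependent histone genes at 10 CPM or more, 42 were higher in every mouse, with a median of 3.47, and of 58 DNA replication genes 57 were, with a median of 1.87. Over all 7806 genes at that level the median log2 ratio was 0.01, and 2473 were higher and 2233 lower in every mouse. These counts describe the cells and carry no test, because the clustering used the same values.

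Single genes gave the scale of that difference. Hist1h1b averaged 824 ± 165 CPM in cycling CD8 T cells and 20.2 ± 6.83 CPM in other CD8 T cells (SD, n = 6 mice). Cenpf, a kinetochore protein, averaged 204 ± 29.5 CPM in cycling and 6.58 ± 2.54 CPM in other CD8 T cells. Ccna2, the cyclin of S phase and G2, averaged 256 ± 16.8 CPM in cycling and 9.10 ± 2.62 CPM in other CD8 T cells. Each of these was higher in cycling cells of all 6 mice. Histone genes have near-identical copies that could share reads, so single histone genes are uncertain. Dbi, which encodes the target of the treatment antibody, averaged 300.3 ± 17.4 CPM in cycling CD8 T cells and between 140.3 and 185.8 CPM in the CD8 cells of clusters 0, 1, 3, 5 and 6.

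As shares of the total, most nucleotide synthesis genes were higher in cycling cells and most effector genes lower. Of 37 genes of nucleotide and one-carbon metabolism, 31 were higher in cycling cells of every mouse, with a median log2 ratio of 0.75. Of 31 cytotoxic effector genes, none was higher and 24 were lower in every mouse, with a median of -0.49. Lower in every mouse were also 17 of 23 inhibitory receptor and exhaustion genes, 21 of 22 naive and stem-like genes, 33 of 39 type I interferon genes and 27 of 28 genes of T cell receptor signalling. Ccl5, a chemokine of effector cells, averaged 990 ± 281 CPM in cycling CD8 T cells and 3657 ± 1063 CPM in other CD8 T cells. Ccl3, a related chemokine, averaged 32.6 ± 8.22 CPM in cycling and 168 ± 50.9 CPM in other CD8 T cells. CPM are shares of a total, and a total that holds many more division transcripts can lower the share of other genes. The median cycling cell held 2.34, 2.46 and 2.31 times the UMIs of the median other CD8 T cell in anti-ACBP mice. In isotype mice the ratio was 2.13, 2.12 and 2.31. A lower share is therefore not by itself a lower number of transcripts per cell.

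Some effector genes that lead other CD8 clusters were also found in the cycling cells. Gzmf and Gzmc, granzymes that lead cluster 3, averaged 1687 ± 321 and 653 ± 84.7 CPM in cycling CD8 T cells. Gzmf averaged 60.8 ± 16.0 CPM in the CD8 cells of cluster 0, the largest CD8 cluster, and 11415 ± 607 CPM in those of cluster 3. Gzma, a granzyme that leads cluster 6, averaged 399 ± 216 CPM in cycling cells, 52.6 ± 24.6 CPM in cluster 0 and 6149 ± 958 CPM in cluster 6. The level of each of these 3 granzymes in cycling cells therefore lay between that of cluster 0 and that of the cluster it leads. Gzmd and Gzme lay between clusters 0 and 3 as well. Gzmb, the perforin gene Prf1 and Gzmk did not lie above cluster 0. They averaged 2510, 293 and 103 CPM in cycling cells and 2783, 484 and 147 CPM in cluster 0. Ifng, the effector cytokine, stayed near cluster 0, at 95.3 ± 32.0 CPM in cycling cells, 74.5 ± 27.8 CPM in cluster 0 and 1501 ± 378 CPM in cluster 5. Tcf7, a factor of stem-like T cells, averaged 6.67 ± 1.40 CPM in cycling cells, 22.4 ± 7.68 CPM in cluster 0 and 147 ± 49.7 CPM in cluster 1.

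Within the cycling cells the authors' phase calls separated replication from mitosis. All 1956 cells were called S or G2M and none G1. Ccne2, the cyclin of S phase entry, averaged 65.3 ± 12.2 CPM in S cells and 24.7 ± 8.23 CPM in G2M cells. Tubb5, a tubulin, averaged 1577 ± 32.2 CPM in S cells and 2547 ± 144 CPM in G2M cells, and Mki67 averaged 502 ± 61.6 CPM in S cells and 891 ± 107 CPM in G2M cells. Phase calls rest on such genes, so these values describe the calls.

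How many of the cycling CD8 T cells were in S phase was compared between treatments. S phase took 37.5%, 39.7% and 41.8% of cycling CD8 T cells in the anti-ACBP mice (95% exact binomial intervals 32.7% to 42.5%, 32.0% to 47.9% and 35.1% to 48.7%). In the isotype mice it took 33.1%, 25.5% and 32.1% (28.6% to 37.9%, 20.5% to 31.0% and 28.0% to 36.4%). All 3 anti-ACBP values lay above the isotype values, with means of 39.7% ± 2.14 and 30.2% ± 4.10 (SD, n = 3 each) and a difference of 9.45 percentage points. The exact two-sided permutation test gave p = 0.1, the smallest that 3 against 3 allows, so the threshold of 0.05 could not be reached. Recomputed on cells thinned to 3000 UMIs, S phase took 29.6%, 33.1% and 30.0% in anti-ACBP mice and 28.9%, 21.7% and 27.6% in isotype mice. The difference in the recomputed calls was 4.83 points. Their method also differed from the authors', and cells at full depth were not rescored. The parts of method and depth in the smaller difference therefore cannot be told apart. Without the DF1 FALSE cells the difference in the authors' calls was 21.4 points, on as few as 34 cells in a mouse.

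**Figure D1:**
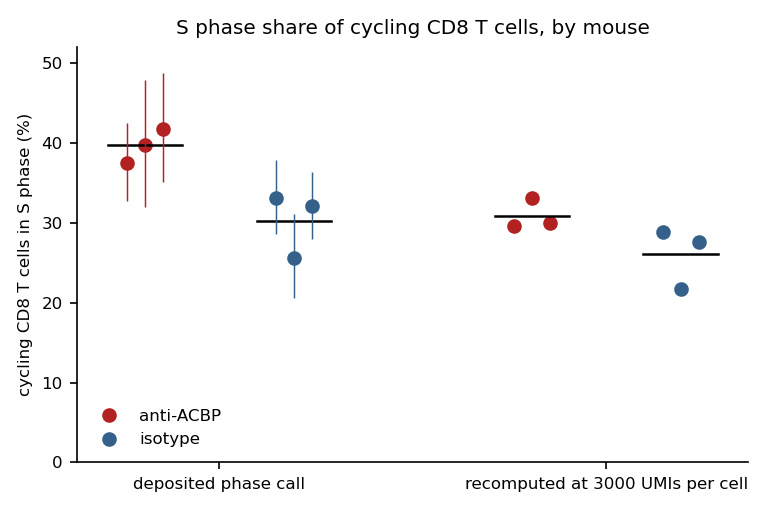
Share of cycling CD8 T cells called S by the authors (percent, with 95% exact binomial intervals) and the same share recomputed after each cell was thinned to 3000 UMIs, one point per mouse and the group mean as a black line, with anti-ACBP in red left of isotype in blue. The authors' calls put the anti-ACBP mice at 37.5% to 41.8% and the isotype mice at 25.5% to 33.1%. The gap is narrower in the recomputed calls, which differ in both method and depth.

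Cycling CD8 T cells made up 9.48% (8.60% to 10.4%), 8.63% (7.37% to 10.0%) and 8.29% (7.26% to 9.43%) of all CD8 T cells in the anti-ACBP mice, against 11% (10.0% to 12%), 12.8% (11.5% to 14.3%) and 17.2% (15.8% to 18.6%) in the isotype mice. The anti-ACBP shares were all lower. No test is given, since genes that the treatment changed also took part in the clustering. None of the division markers of the label passed the treatment test. Mki67 had 755, 615 and 638 CPM in cycling cells of anti-ACBP mice and 808, 930 and 809 CPM in those of isotype mice, a log2 fold change of -0.34 ± 0.09 (SE) with an adjusted p of 0.081 in edgeR's quasi-likelihood test. Top2a differed by -0.24 on the same scale, with an adjusted p of 0.21, and Pclaf 0.05, with an adjusted p of 0.82. Hist1h1b had 963, 973 and 851 CPM in anti-ACBP mice and 560, 903 and 714 CPM in isotype mice, which overlapped.

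The treatment comparison asks how cycling CD8 T cells of anti-ACBP tumours differ in expression from those of isotype tumours. The immediate-early genes Fos, Fosb and Egr1, the factor Klf4 and a few genes of the damage response were higher with anti-ACBP. The AP-1 gene Fosl2, a number of glycolysis and oxygen-response genes and type I interferon targets, and the effector regulator Prdm1 were lower. In other CD8 T cells 95 of 11539 tested genes passed (0.823%). Of 9994 genes tested in cycling cells on UMIs summed per mouse, 133 passed an adjusted p of 0.05 (1.33%; edgeR, Benjamini-Hochberg), 47 of them higher (0.47%) and 86 lower (0.861%) in anti-ACBP mice. The 2 groups of 3 mice did not overlap for any of the 133, as for 18.1% of all genes tested. Without the DF1 FALSE cells 21 genes passed, of which 18 were among the 133, and Fosb, Csf1, Egr1, Prdm1 and Slc2a1 were among those that still passed. The count was 49 without anti-ACBP replicate 1, 51 without anti-ACBP replicate 2, 233 without isotype replicate 1 and 39 without isotype replicate 3. Of 13 tested mitochondrially encoded genes, 5 were among those higher, with log2 fold changes of 0.41 to 0.60, while their share of all UMIs was 0.864%, 0.838% and 0.920% in anti-ACBP mice and 0.892%, 0.741% and 0.663% in isotype mice.

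**Figure D2:**
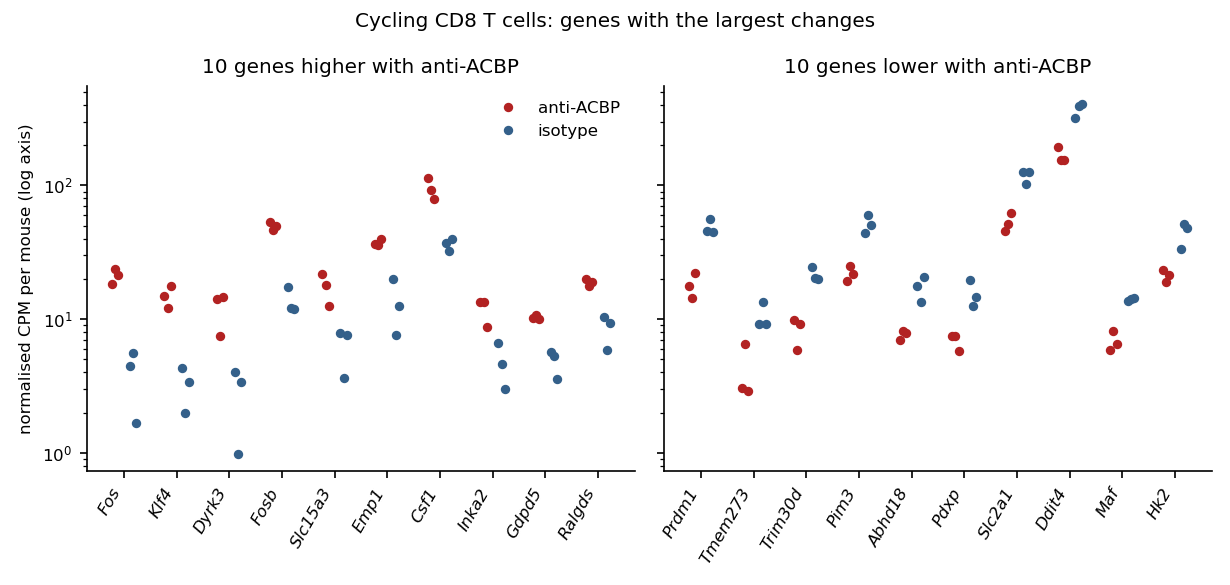
Normalised expression (CPM, log axis) of the 10 genes with the largest rise and the 10 with the largest fall in cycling CD8 T cells, one point per mouse, with anti-ACBP in red left of isotype in blue. For Fosb the anti-ACBP mice sit at 46.6 to 53.1 CPM and the isotype mice at 12 to 17.5 CPM, and for Slc2a1 the anti-ACBP mice sit at 45.9 to 62.1 CPM and the isotype mice at 102 to 127 CPM.

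Members of the immediate-early families moved in both directions. Fos, a subunit of the transcription factor AP-1, had 18.3, 23.6 and 21.6 CPM in anti-ACBP mice and 4.49, 5.60 and 1.68 CPM in isotype mice, a log2 fold change of 2.47 ± 0.29 (adjusted p = 8.9e-04, edgeR). Fosb, a close relative, had 53.1, 46.6 and 49.7 CPM in anti-ACBP mice and 17.5, 12.2 and 12 CPM in isotype mice, a log2 fold change of 1.82 ± 0.15 (adjusted p = 5.9e-05). Every anti-ACBP mouse was above every isotype mouse for both genes, and the groups were as separate for all 133 genes that passed. Egr1, a factor induced within minutes of receptor signals, had 49.4, 52.5 and 46.6 CPM in anti-ACBP mice and 26.5, 25 and 20.8 CPM in isotype mice (log2 fold change 1.04 ± 0.13, adjusted p = 7.5e-04). Irf4, a factor that follows receptor signal strength, had 41.8, 39.3 and 46.9 CPM in anti-ACBP mice and 26.0, 29.3 and 26.2 CPM in isotype mice (0.66 ± 0.12, adjusted p = 0.013). Of 34 tested genes of early T cell activation 4 rose and 1 fell, with a median log2 fold change of 0.12, against -0.00 over all genes tested. Of all genes tested 0.47% rose and 0.861% fell. The one that fell was Fosl2, another AP-1 subunit, at 76.4, 73.5 and 67.9 CPM in anti-ACBP mice and 118, 163 and 144 CPM in isotype mice (-0.96, adjusted p = 7.5e-04). Junb, also of AP-1, had 487, 402 and 555 CPM in anti-ACBP mice and 745, 1140.5 and 822 CPM in isotype mice, without overlap, and did not pass (-0.90 ± 0.21, adjusted p = 0.18). Of 31 tested genes of the list 2 rose and 1 fell without the DF1 FALSE cells, with a median of 0.17, and without isotype replicate 1, 7 of 34 rose and 2 fell.

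Fos and Egr1 are also among 18 tested genes that enzymatic dissociation and heat induce. Of the 18, 3 rose and none fell, against 0.47% higher among all genes tested. The median log2 fold change of the 18 was -0.11, with 12 of them below 0, and without the DF1 FALSE cells 1 rose and the median was 0.02. All tumours were dissociated with enzymes, and no source used here says whether handling differed between groups, so its part in these genes was not tested.

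Klf4, a factor that restrains T cell proliferation, had 14.9, 12.1 and 17.6 CPM in anti-ACBP mice and 4.33, 1.98 and 3.37 CPM in isotype mice (log2 fold change 2.11 ± 0.26, adjusted p = 7.5e-04). Csf1, the macrophage growth factor, had 114, 92.5 and 79.8 CPM in anti-ACBP mice and 37.5, 32.6 and 39.9 CPM in isotype mice (1.38 ± 0.13, adjusted p = 4.6e-04). Dyrk3, a kinase that dissolves condensates in mitosis, had 14.1, 7.54 and 14.7 CPM in anti-ACBP mice and 4.02, 0.988 and 3.37 CPM in isotype mice (2.0 ± 0.35, adjusted p = 0.017). None of these 3 overlapped between the groups, as held for all 133 genes that passed. Emp1, a membrane protein, rose by 1.38 ± 0.26 and Ralgds, an exchange factor for Ral GTPases, by 1.09 ± 0.19 on the log2 scale. Among genes that passed at 10 CPM or more, the others of the 10 largest rises were Slc15a3, a lysosomal peptide transporter, at 1.39, Inka2 at 1.30 and Gdpd5 at 1.09. Txnip, an inhibitor of thioredoxin and of glucose uptake, had 129, 127 and 150 CPM in anti-ACBP mice and 82.0, 60.6 and 65.3 CPM in isotype mice (0.95 ± 0.11, adjusted p = 8.9e-04).

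Genes of the p53 pathway, which answers DNA damage such as platinum drugs make, rose in small number. Of 58 tested, 5 rose and none fell, against 0.47% higher among all genes tested, and the median log2 fold change was 0.05. Bax, which permeabilises mitochondria in apoptosis, had 271, 236 and 254 CPM in anti-ACBP mice and 208, 172 and 193 CPM in isotype mice (0.41 ± 0.09, adjusted p = 0.030). Bbc3, the BH3-only protein Puma, had 21.8, 21.6 and 23.4 CPM in anti-ACBP mice and 14.7, 7.90 and 12.5 CPM in isotype mice (0.86 ± 0.18, adjusted p = 0.032). The death receptors Fas and Tnfrsf10b rose by 0.74 ± 0.17 and 1.53 ± 0.32 on the log2 scale, and Ei24 by 0.60. The groups did not overlap for any of the 5 genes, as for all 133 genes that passed and 18.1% of all genes tested. Of the list's tested genes none passed without anti-ACBP replicate 1, without anti-ACBP replicate 2 or without isotype replicate 3, 1 passed without isotype replicate 2, 2 without anti-ACBP replicate 3 and 12 without isotype replicate 1. The count was 1 without the DF1 FALSE cells, at a median of 0.05, and without the 10 largest clones it was 0, at a median of 0.10. Every mouse in both groups had received oxaliplatin.

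Of the 27 gene lists, that of glycolysis and oxygen response held the most falls. Of 39 tested, 14 fell and none rose, 37 had a log2 fold change below 0, and the median was -0.50. Over all genes tested 0.861% fell, 50.2% were below 0 and the median was -0.00. Slc2a1, the glucose transporter Glut1, had 45.9, 51.8 and 62.1 CPM in anti-ACBP mice and 127, 102 and 126 CPM in isotype mice (-1.17 ± 0.12, adjusted p = 4.6e-04). Hk2, the hexokinase that traps glucose, had 23.5, 19 and 21.3 CPM in anti-ACBP mice and 33.6, 51.4 and 47.7 CPM in isotype mice (-1.02 ± 0.16, adjusted p = 0.0072). No anti-ACBP mouse reached the level of an isotype mouse for either gene, and no gene among the 133 that passed overlapped. P4ha1, a collagen prolyl hydroxylase and a common oxygen-response gene, had 42.7, 47.5 and 44.7 CPM in anti-ACBP mice and 85.6, 78.1 and 85.9 CPM in isotype mice (-0.90 ± 0.10, adjusted p = 4.6e-04). Ddit4, an inhibitor of mTORC1, had 192, 154 and 154 CPM in anti-ACBP mice and 320, 391 and 410 CPM in isotype mice (-1.15 ± 0.11, adjusted p = 7.5e-04).

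Several enzymes of the glycolytic chain were among the falls. Tpi1, triosephosphate isomerase, had 593, 695 and 636 CPM in anti-ACBP mice and 977, 933 and 1209.8 CPM in isotype mice (-0.70 ± 0.10, adjusted p = 0.0058). The other members that passed, in part chosen after their values were seen, were the phosphofructokinases Pfkl (-0.74) and Pfkp (-0.50), their activator Pfkfb3 (-0.83), Pgam1 (-0.64), the lactate exporter Slc16a3 (-0.90), Pdk1, which holds pyruvate out of the mitochondrion (-1.01), the oxygen sensor Egln3 (-0.88), the histone demethylase Kdm3a (-0.82) and the cytokine Mif (-0.46). Ankrd37, an oxygen-response gene named after its values were seen, had 19.6, 9.51 and 12.6 CPM in anti-ACBP mice and 95.3, 54.0 and 100.3 CPM in isotype mice. Its log2 fold change of -2.51 ± 0.36 missed the threshold, at an adjusted p of 0.052. Only Hif1a, the oxygen-regulated factor itself, at 0.19, and Ldhb, a lactate dehydrogenase subunit, at 0.73, lay above 0, and neither passed. Without the DF1 FALSE cells 4 members passed, 37 were below 0 and the median was -0.59, and in S cells alone 4 passed. The count was 8 without anti-ACBP replicate 1, 5 without anti-ACBP replicate 2 and 6 without isotype replicate 3. Of 60 respiratory chain genes none passed in edgeR or DESeq2, 1 had an unadjusted p under 0.05 (12.5% of all genes tested), and the median was -0.02. Without the DF1 FALSE cells none of these genes passed and their median was 0.06.

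Type I interferon targets fell in smaller steps. Of 40 tested, 7 fell and none rose, 38 had a log2 fold change below 0, and the median was -0.37. Over all genes tested 0.861% fell and 50.2% were below 0. Samd9l, a restriction factor, had 27.8, 27.5 and 29.7 CPM in anti-ACBP mice and 46, 53 and 54.1 CPM in isotype mice (-0.84, adjusted p = 0.0020). Usp18, which removes ISG15 and dampens the interferon receptor, had 19.6, 16.4 and 19.2 CPM in anti-ACBP mice and 27.4, 40.8 and 35.5 CPM in isotype mice (-0.87, adjusted p = 0.013). Both were lower in each anti-ACBP mouse than in any isotype mouse, a separation that all 133 genes that passed had. Isg20, an exonuclease, fell by 0.95 on the log2 scale, Ifi213 by 0.75, Ifi209 by 0.69, Xaf1 by 0.62 and Trim30a by 0.48, some of them named after their values were seen. Trim30d, a relative of Trim30a outside the list, had 9.82, 5.90 and 9.21 CPM in anti-ACBP mice and 24.5, 20.4 and 19.8 CPM in isotype mice (-1.33 ± 0.19, adjusted p = 0.0024). The Trim30 and Ifi200 genes have near copies that could share reads, which leaves single members uncertain. No member passed in S cells alone, where 27 of 37 were below 0 at a median of -0.17, or without the DF1 FALSE cells, where 35 of 39 were below 0 at a median of -0.46. The count was 12 without isotype replicate 1, 4 without anti-ACBP replicate 2, 4 without the 10 largest clones and 3 without isotype replicate 3. Of 35 tested targets of type II interferon none passed in edgeR or DESeq2, 8 fell at an unadjusted p under 0.05, and the median was -0.06. Of all genes tested 12.5% had such a p, in either direction.

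**Figure D3:**
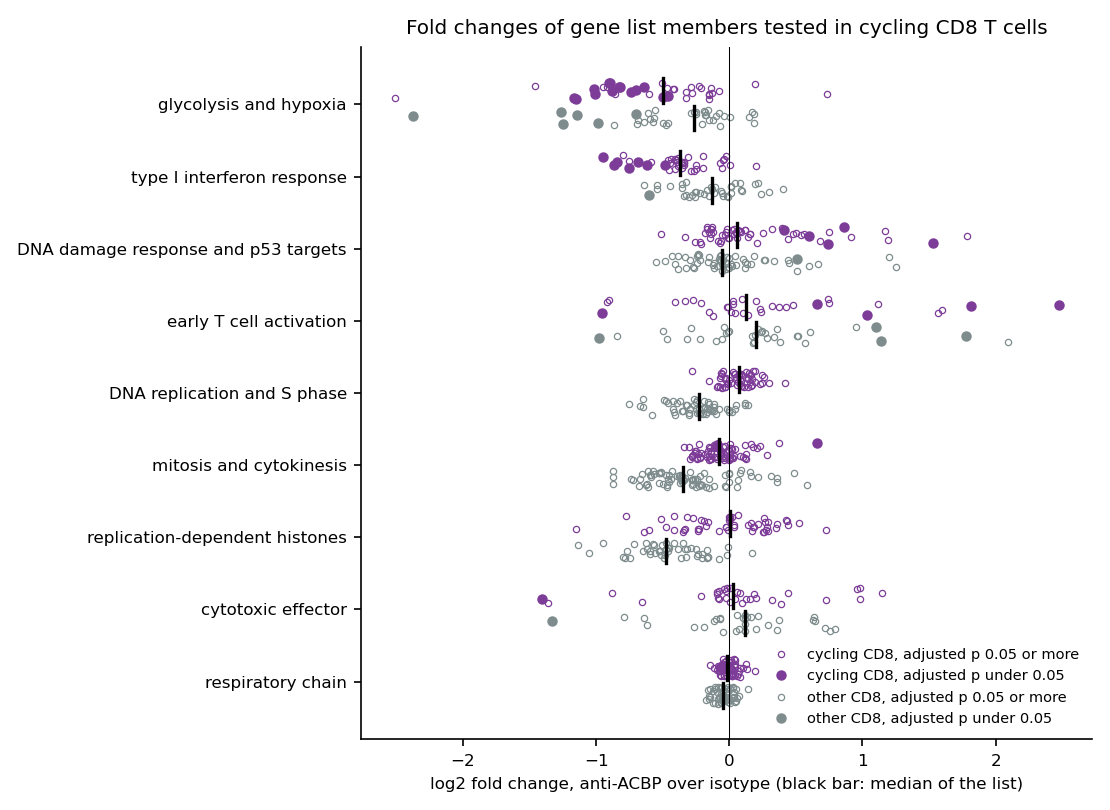
Log2 fold change of every tested gene in 9 gene lists (anti-ACBP over isotype), one point per gene, in cycling CD8 T cells (purple) above other CD8 T cells (grey), filled where the adjusted p was under 0.05, with the list median as a black bar. In cycling cells glycolysis and oxygen-response genes centre on -0.50 and type I interferon genes on -0.37, while DNA replication genes centre on 0.08 and mitosis genes on -0.08.

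The median log2 fold change was 0.02 over 32 tested cytotoxic effector genes, and -0.09 over 30 tested without the DF1 FALSE cells. Of the 32 genes 1 passed. It was Prdm1, the factor Blimp-1 of effector differentiation, with 17.6, 14.4 and 22.1 CPM in anti-ACBP mice and 45.3, 56.3 and 44.5 CPM in isotype mice (-1.41 ± 0.15, adjusted p = 4.6e-04). Gzmb, granzyme B, had 2944, 2416 and 2218 CPM in anti-ACBP mice and 1613, 3374 and 2578 CPM in isotype mice (0.00 ± 0.32). Ifng had 125, 74.4 and 120 CPM in anti-ACBP mice and 66.7, 127 and 60.1 CPM in isotype mice (0.38 ± 0.39, adjusted p = 0.77). The groups overlapped for both, and standard errors this wide could not show a modest change. Pdcd1, which encodes the PD-1 receptor, differed by -0.06 ± 0.14 (adjusted p = 0.92) and Dbi by 0.03 ± 0.08 (adjusted p = 0.93). Cd8a and Cd8b1, which chose the cells, differed by -0.23 and -0.08. The antibody acts on the protein, so the Dbi transcript does not check the treatment.

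Other genes that fell were spread over several functions. Pim3, a survival kinase, had 19.3, 24.9 and 21.8 CPM in anti-ACBP mice and 44.1, 59.9 and 50.3 CPM in isotype mice (-1.23 ± 0.14, adjusted p = 7.5e-04). Maf, a factor of exhausted and helper T cells, had 5.86, 8.2 and 6.58 CPM in anti-ACBP mice and 13.6, 14.2 and 14.4 CPM in isotype mice (-1.07, adjusted p = 0.013). Rgs16, a brake on G protein signals, fell by 0.83, Entpd1, the ectonucleotidase CD39, by 0.65, and Itga1, a collagen-binding integrin of resident cells, by 0.75 on the log2 scale. Among genes that passed at 10 CPM or more, the largest falls also held Tmem273 (-1.40), Abhd18 (-1.21) and the phosphatase Pdxp (-1.19). Of 22 tested G1 regulators 2 fell, the inhibitors of cyclin-dependent kinases Cdkn1b (-0.63, adjusted p = 0.017) and Cdkn2d (-0.39, adjusted p = 0.043), and none passed without the DF1 FALSE cells. The median of the 22 was 0.02 with those cells and -0.10 without them. Of 58 replication genes none passed in edgeR or DESeq2 and 8 had an unadjusted p under 0.05 (12.5% of all genes tested), with a median of 0.08. Of 53 histone genes none passed in edgeR, 2 passed in DESeq2 and 4 had an unadjusted p under 0.05, with a median of 0.01. Of 81 mitosis genes only Gtse1, a spindle protein, passed, at 0.66, with 58 below 0 and a median of -0.08. No mitosis or histone gene passed without the DF1 FALSE cells, where 78 of 81 mitosis genes were below 0 at a median of -0.35, and 50 of 52 histone genes were below 0 at a median of -0.48, while the replication median was 0.08. The cells left numbered 76, 118 and 34 in anti-ACBP mice and 305, 256 and 403 in isotype mice. S phase took 48.7%, 35.6% and 67.6% of them in anti-ACBP mice and 32.5%, 25% and 30.3% in isotype mice. The part of this phase mix in the medians was not tested.

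The proximal promoters of the genes that fell were read from RefSeq sequence on GRCm38.p6, over the 250 bases before each start. The hypoxia response core, ACGTG or GCGTG on either strand, occurred in 12 of the 14 glycolysis and oxygen-response genes that fell (85.7%), and in 32 of 35 tested list members with a sequence, against 63.6% of 7935 tested genes. The interferon response core, GAAA followed after any 2 bases by GAAA on either strand, occurred in 2 of 6 type I genes that fell, Ifi213 and Trim30a, in 16 of 30 tested list members with a sequence, and in 3.36% of all tested genes. A match is a string in a window and no measured binding. The stretches below, each 80 bases on the strand of the gene, hold a match in capitals and belong to genes whose falls are given above. Slc2a1 is at chr4:119108665-119108744 on the plus strand, Ddit4 at chr10:59951841-59951920 on the minus strand, P4ha1 at chr10:59323216-59323295 on the plus strand and Hk2 at chr6:82774462-82774541 on the minus strand. Trim30d is at chr7:104507850-104507929 and Ifi213 at chr1:173599296-173599375, both on the minus strand.
Slc2a1: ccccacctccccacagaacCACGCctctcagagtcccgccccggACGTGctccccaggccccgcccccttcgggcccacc
Ddit4: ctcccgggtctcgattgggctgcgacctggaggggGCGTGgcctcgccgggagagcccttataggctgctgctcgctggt
P4ha1: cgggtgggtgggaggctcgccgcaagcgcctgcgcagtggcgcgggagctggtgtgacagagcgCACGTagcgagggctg
Hk2: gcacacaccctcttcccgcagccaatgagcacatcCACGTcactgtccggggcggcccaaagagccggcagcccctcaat
Trim30d: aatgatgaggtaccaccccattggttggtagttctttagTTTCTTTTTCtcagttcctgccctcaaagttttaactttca
Ifi213: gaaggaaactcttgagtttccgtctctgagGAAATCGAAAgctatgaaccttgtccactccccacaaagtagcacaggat

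Whether the treatment moved cycling CD8 T cells and other CD8 T cells unequally was tested as a difference in change, with the mouse as a block. Of 11112 genes, 11 passed (0.099%; edgeR), 6 with a more positive change (0.054%) and 5 with a more negative change (0.045%) in cycling cells. Trim30d differed in change by -0.97 (adjusted p = 0.016), with 8.31 ± 2.11 CPM in anti-ACBP and 21.6 ± 2.52 CPM in isotype cycling cells, and 19.5 ± 2.08 CPM in anti-ACBP and 24.9 ± 3.91 CPM in isotype other CD8 T cells (SD, n = 3 each). Ifi209 differed by -0.54 (adjusted p = 0.016), with 49.2 ± 2.98 CPM in anti-ACBP and 79.3 ± 6.54 CPM in isotype cycling cells, and 109 ± 1.87 CPM in anti-ACBP and 120.0 ± 2.11 CPM in isotype other cells. Isg15, the ubiquitin-like interferon target, differed by -0.47 (adjusted p = 0.0040). Its means were 147 ± 24.8 CPM in anti-ACBP and 203 ± 27.0 CPM in isotype cycling cells, against 221 ± 45.2 CPM in anti-ACBP and 219 ± 41.4 CPM in isotype other cells. For these 3 interferon targets the change was more negative in the cycling cells, and Isg15 alone did not pass within them (adjusted p = 0.19).

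The other 8 genes that passed belong to cytokine, cycle and metabolic functions. Tnf, the inflammatory cytokine, averaged 20.7 ± 3.46 CPM in anti-ACBP and 21.7 ± 4.94 CPM in isotype cycling cells, and 39.8 ± 12.9 CPM in anti-ACBP and 24.1 ± 5.93 CPM in isotype other cells, a difference in change of -0.81 (adjusted p = 0.017) that was -0.06 against the other CD8 T cells of clusters 0, 3 and 6 alone. Ccne1, a cyclin of S phase entry, averaged 57.0 ± 4.81 CPM in anti-ACBP and 51.4 ± 4.29 CPM in isotype cycling cells, and 10.9 ± 1.76 CPM in anti-ACBP and 17.3 ± 3.26 CPM in isotype other cells, a difference of 0.81 (adjusted p = 0.0082). Suox, sulfite oxidase, averaged 30.5 ± 3.83 CPM in anti-ACBP and 30.5 ± 2.20 CPM in isotype cycling cells, and 55.0 ± 4.74 CPM in anti-ACBP and 36 ± 3.3 CPM in isotype other cells, a difference of -0.60 (adjusted p = 0.029). In cycling cells the treatments overlapped for both Tnf and Suox. Positive differences were also found for Tuba1b, a tubulin (0.45), the histone genes Hist2h4 (0.89) and Hist2h2ac (0.68), the RNA methyltransferase gene Mettl1 (1.06) and the cytokine gene Lta (0.75), the last named after its values were seen. The tubulin and histone genes have near-identical copies. Of 39 glycolysis and oxygen-response genes none passed this test in edgeR, 7 had an unadjusted p under 0.05 (7.79% of all genes), and Slc2a1 fell by 0.99 on the log2 scale in other CD8 T cells, with a difference in change of -0.18 (adjusted p = 0.70).

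**Figure D4:**
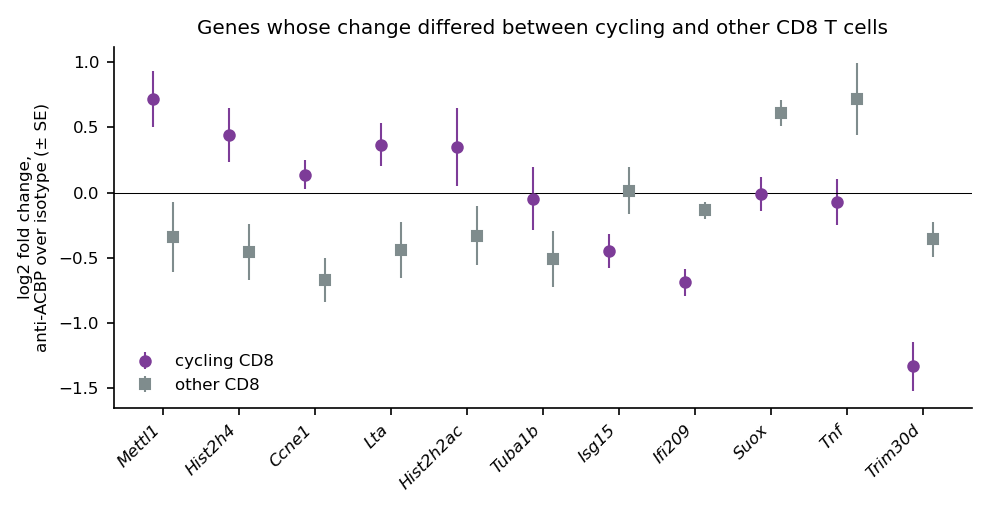
Log2 fold change of anti-ACBP over isotype (± SE) in cycling CD8 T cells (purple circles) and other CD8 T cells (grey squares) for the 11 genes whose change differed between them. Trim30d and Ifi209 lie lower in the cycling cells, and Suox and Tnf higher in the other CD8 T cells.

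The 410 cycling CD4 T cells gave a second view of division under the same treatment, in the same mice. Of 7228 genes tested there, 8 passed (0.111%), 2 higher and 6 lower with anti-ACBP. Fosb was higher in cycling CD4 T cells too, with a log2 fold change of 1.99 (adjusted p = 0.012), and Slc2a1 was lower, at -1.16 (adjusted p = 0.0080), as was Ddit4, at -0.87 (adjusted p = 0.017). Of 34 glycolysis and oxygen-response genes tested there 5 fell and none rose, at a median of -0.63. Of 35 type I interferon genes none passed, at a median of -0.54. In other CD8 T cells 6 of 43 glycolysis and oxygen-response genes fell, at a median of -0.25. Of 43 type I interferon genes 1 fell in those cells, at a median of -0.14. Falls of glycolysis and oxygen-response genes were thus not particular to cycling CD8 T cells. The type I interferon median was below 0 in cycling CD4 and other CD8 T cells as well. In the difference in change against other CD8 T cells, 22 of 40 type I interferon genes had an unadjusted p under 0.05 (edgeR). That share was 7.79% over all genes, and 2 list members passed, both with a more negative change in cycling cells. Only 2 of 9737 genes differed in change between cycling CD8 and cycling CD4 T cells (0.0205%). Malt1, a protease of receptor signalling, averaged 80.9 ± 17.5 CPM in anti-ACBP and 109 ± 19.7 CPM in isotype cycling CD8 T cells, and 120 ± 46 CPM in anti-ACBP and 73.7 ± 8.63 CPM in isotype cycling CD4 T cells (difference in change -1.03, adjusted p = 0.047). Rgs1, a regulator of G protein signals, gave a difference of -0.76 (adjusted p = 0.047). With so few CD4 cells, changes that differ by less could not be seen.

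The T cell receptor libraries showed from which clones the cycling cells came. A single TRB chain was read in 1419 of the 1956 cells (72.5%), 2 or more in 82 and none in 455. Cells of 1 mouse with the same TRB V gene and the same CDR3 nucleotide sequence were taken as 1 clone. The cycling cells came from 57, 60 and 81 clones in the anti-ACBP mice and from 90, 54 and 96 clones in the isotype mice. The largest held 59, 10 and 13 cycling cells in the anti-ACBP mice and 72, 32 and 29 in the isotype mice. Among 425 clones with a cycling cell, 10 had cycling cells in 2 or more mice, and 6.67% to 34.4% of typed cycling cells per mouse belonged to a clone seen in another mouse, the highest in anti-ACBP replicate 1. At most 2.45% per mouse belonged to a clone also seen in CD4 T cells.

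Most cycling cells had a clone member outside their cluster. Such a partner was found for 97.2%, 93.3% and 91.5% of typed cycling CD8 T cells in the anti-ACBP mice, and for 97.2%, 97.1% and 94.2% in the isotype mice. For the other CD8 T cells the share with a further clone member outside cluster 4 was 94.0%, 92.0% and 90.2% in the anti-ACBP mice and 93.3%, 92.3% and 94.0% in the isotype mice. The share was higher in cycling cells of 6 of 6 mice, by 2.43 ± 1.77 percentage points (SD, n = 6), with p = 0.03125 in an exact two-sided sign-flip test, the smallest that 6 mice allow, and 0.094 after adjustment over 3 clone measures. Against the other CD8 T cells of clusters 0, 3 and 6 alone the difference was 0.11 points.

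The cycling cells were set against the other CD8 T cells for how far large clones made them up. The 10 largest clones of the other CD8 T cells held 71.3%, 34.2% and 33.5% of cycling cells in the anti-ACBP mice and 51.0%, 60.4% and 42.5% in the isotype mice. They held 57.9%, 38.9% and 41.5% of the other CD8 T cells themselves in the anti-ACBP mice and 49.8%, 53.8% and 49.1% in the isotype mice. The mean difference was 0.32 ± 8.39 points, positive in 3 of 6 mice (exact sign-flip p = 0.875), and it turned negative under several alternatives. At an equal number of 120 cells, cycling cells held 36.8, 60 and 66.8 distinct clones in the anti-ACBP mice and 53.3, 40.8 and 53.9 in the isotype mice, and other CD8 T cells held 48.4, 63.6 and 64.9 in the anti-ACBP mice and 56.4, 47.7 and 49.3 in the isotype mice (difference -3.12 ± 5.87, exact sign-flip p = 0.25). Between treatments none of the 3 measures passed an exact permutation test, with p from 0.3 to 0.8.

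The clusters that held the clone partners were compared in the same way. Cluster 0 held 66.3% of the partners of cycling cells and 66.2% of those of other CD8 T cells, as means over 6 mice. Cluster 3 held 15.8% and 16.0%, cluster 6 held 6.08% and 6.21%, cluster 1 held 5.47% and 5.08%, and cluster 5 held 5.08% and 4.93%, in the same order. No cluster passed, with 0.5 as the smallest adjusted p of the exact sign-flip tests.

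The share of cells in the cycling cluster is described here for single large clones, without a test. Of the 51 clones with at least 50 CD8 T cells, the share in the cycling cluster ran from 5.08% to 15.4%, from 0% to 17.9% and from 1.05% to 9.72% in the anti-ACBP mice, and from 2.30% to 22.6%, from 10.1% to 25.3% and from 3.17% to 33.0% in the isotype mice. In isotype replicate 1, a TRBV17 clone had 72 of 318 cells cycling (22.6%, 95% exact binomial interval 18.2% to 27.6%), and a TRBV19 clone of like size had 6 of 261 (2.30%, 0.848% to 4.94%). The 2 intervals cover counting error only, and the 2 clones were picked as the extremes of their mouse. In isotype replicate 3, another TRBV17 clone had 29 of 88 cells cycling (33.0%, 23.3% to 43.8%), the highest share of the 51. In anti-ACBP replicate 1, a TRBV13-1 clone had 50 of 324 cells cycling (15.4%, 11.7% to 19.8%) and the largest clone, with TRBV12-2, had 59 of 611 (9.66%). In anti-ACBP replicate 3, a TRBV26 clone had 1 of 95 (1.05%, 0.0266% to 5.73%), and in anti-ACBP replicate 2 a TRBV2 clone had 0 of 51, with an exact interval up to 6.98% and a limit of 5.88% by the rule of 3 counts. These clones were picked for their shares, so no test is given.

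The CDR3 sequences of these clones are shown so that the receptors of clones with high and low cycling shares can be set side by side. Among them are the highest and the lowest share of the 51 clones and the largest clone. They were read from the deposited receptor table and run 5′ to 3′ from the codon of the conserved cysteine. The TRB locus lies on mouse chromosome 6. Capitals mark the codons between the first 4 and the last 4, the stretch that the joining of segments makes most variable.
TRBV17, isotype 1, 72 of 318 cells cycling: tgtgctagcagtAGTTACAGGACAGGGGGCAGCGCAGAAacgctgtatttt
TRBV19, isotype 1, 6 of 261 cells cycling: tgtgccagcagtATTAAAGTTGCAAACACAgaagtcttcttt
TRBV17, isotype 3, 29 of 88 cells cycling: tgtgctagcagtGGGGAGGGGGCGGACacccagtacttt
TRBV13-1, anti-ACBP 1, 50 of 324 cells cycling: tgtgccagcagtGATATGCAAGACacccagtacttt
TRBV12-2, anti-ACBP 1, 59 of 611 cells cycling: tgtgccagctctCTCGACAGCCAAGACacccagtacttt
TRBV2, anti-ACBP 2, 0 of 51 cells cycling: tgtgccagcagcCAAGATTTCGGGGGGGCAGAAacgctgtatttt
TRBV26, anti-ACBP 3, 1 of 95 cells cycling: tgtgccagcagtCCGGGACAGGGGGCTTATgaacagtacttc
The 2 TRBV17 clones share the V gene and the first 4 codons but not the capitals, so the clones with the highest shares in these 2 mice had different receptors.

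**Figure D5:**
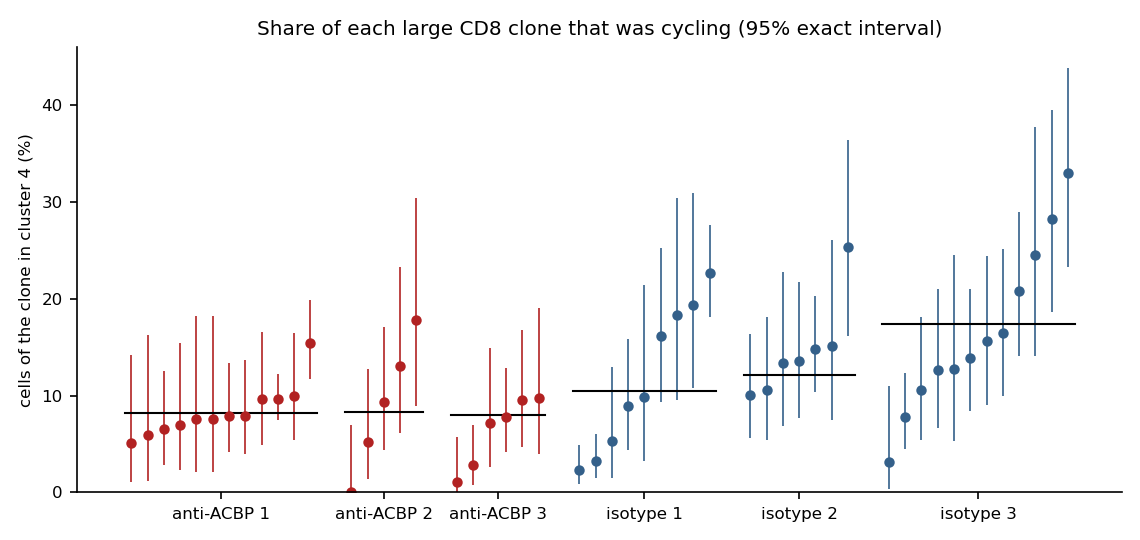
Share of each large clone (at least 50 CD8 T cells) that lay in the cycling cluster, in percent, by mouse, one point per clone with its 95% exact interval, the black line giving the share over all typed CD8 T cells of the mouse, with the anti-ACBP mice in red left of the isotype mice in blue. Clones of 1 mouse spread widely, from 2.30% to 22.6% in isotype replicate 1 and from 3.17% to 33.0% in isotype replicate 3.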

How the data were processed

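Sorted tumour T cells were profiled one by one for 5′ transcripts and receptor chains, per the labels. The authors deposited, for each library, a matrix of raw UMI counts, and their cell table gives cluster, phase and DF1 for each cell they kept, per the file headers. Cell Ranger 7.0.0, Seurat and build mm10 are named in the submitters' processing notes. Each library was matched to its group by its title.

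Counts were summed per mouse over cycling, other CD8 and cycling CD4 T cells. Summed depth of the cycling CD8 T cells was 3053197 to 6801347 UMIs in anti-ACBP mice and 3086177 to 6498493 UMIs in isotype mice. The test was edgeR 4.0.16's robust quasi-likelihood F test on TMM-scaled libraries after filterByExpr, with Benjamini-Hochberg adjustment at 0.05, with receptor segments left out, and DESeq2 1.42.0 (R 4.3.3) as an alternative. Differences in change were fitted with the mouse as a block. Reported log2 fold changes are anti-ACBP over isotype. The 3 mice per group are separate samples by their labels, and p-values measure only the spread between these samples. On simulated counts the treatment test recovered 100% of genes changed by 1 on the log2 scale and 49% of those changed by 0.5. The test of a difference in change recovered 95% and 1%. False calls numbered 7 at each size for the treatment test, and 10 and 0 for the difference in change. In the simulation every gene had the same dispersion, and the changed genes were drawn only from those at higher levels. The cycling and other CD8 sums were simulated independently, without a shared mouse. Whether recovery is as high for genes at low counts or with a wide spread between mice, such as Gzmb (SE 0.32), was not tested.

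Shares were compared by exact two-sided permutation or, between cells of the same mice, exact sign-flip tests (SciPy 1.17.1). Binomial intervals are exact 95% ones, which like the limit of 3 counts for a count of 0 cover counting error only. Phases at 3000 UMIs were rescored with 43 S and 54 G2M genes in Scanpy 1.11.5, since no stated method for the deposited calls was found. No doublet caller was run, and cells with 2 or more TRB chains or DF1 FALSE were left out in alternatives.

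Levels in the description are CPM without TMM factors, and log2 ratios use a pseudocount of 1 CPM. The 27 gene lists, the members and the tests were chosen with earlier results of these data known. Named genes are Cd8a, Cd8b1, Mki67, Top2a, Pclaf, Hist1h1b, Dbi, Pdcd1, Gzmb, Ifng, Prdm1, Hk2, Ddit4, Fosb and S1pr1, the 10 largest changes in each direction among genes that passed at 10 CPM or more without overlap, up to 4 members of each list and up to 5 genes per direction of each difference in change by smallest p. Genes named by a number, mitochondrially encoded genes and receptor segments were counted and not named. Other genes were named after their values were seen. Some genes that the rule names are not reported here. Alternatives covered scaling, filters, dispersion, tool, phase, lineage rule, clones, DF1 and each mouse left out.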

Additional observations from a re-analysis of the deposited data

Results flagged for a closer look

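The treatment change differed between cycling and other CD8 T cells, by a test of the difference itself (edgeR, mouse as a block, adjusted p under 0.05), for 11 genes, and between cycling CD8 and cycling CD4 T cells for 2. The difference in log2 fold change was 0.445 for Tuba1b, 0.8886 for Hist2h4, 0.6757 for Hist2h2ac, 0.8078 for Ccne1, 1.0592 for Mettl1 and 0.747 for Lta, all more positive in cycling CD8 T cells. It was -0.4746 for Isg15, -0.5402 for Ifi209, -0.9668 for Trim30d, -0.8112 for Tnf and -0.6047 for Suox, all more negative in cycling CD8 T cells. Hist2h4, Hist2h2ac and Isg15 passed with any one mouse left out and with other CD8 T cells limited to G1 or to clusters 0, 3 and 6. Against cycling CD4 T cells the difference was -0.7555 for Rgs1 and -1.0259 for Malt1, and neither passed without anti-ACBP replicate 3 or without any 1 isotype mouse.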

How the results depend on the processing

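The 133 genes became 462 without the filter on low counts, 50 in S cells alone, 21 without DF1 FALSE cells, 83 without the 10 largest clones and 39 to 233 with 1 mouse left out. Whether the replicate numbers pair the mice was not settled. Deviations of same-numbered mice correlated at 0.20, 0.05 and -0.03, and those of the other pairs at -0.14 to 0.09. The fit with the replicate block gave 257 genes, all 133 among them. The count stayed within 1.5 times under RLE factors (134), upper quartile factors (127), DESeq2 (154), a filter of 10 CPM (108), no robust estimation (105), G2M cells (109), the stricter lineage rule (108) and without cells of 2 or more TRB chains (122). The 56 genes that passed and were followed through the alternatives kept their direction in every alternative that tested them, and 44 lost the call without DF1 FALSE cells. The 11 differences in change became 17 against G1 cells and 5 to 74 with 1 mouse left out, and the 2 against CD4 cells 0 to 7 (none without anti-ACBP replicate 3). The S phase difference ranged from 4.83 to 21.4 points.

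The partner share difference of 2.43 points, which missed the threshold after adjustment, also had an unadjusted exact p above 0.05 with TRA added (1.87), against G1 cells (1.98), against clusters 0, 3 and 6 (0.11), without DF1 FALSE cells (1.05), under the stricter lineage rule (1.78) or with 1 mouse left out (1.95 to 2.87), where 5 mice cannot pass. The share in the 10 largest clones turned to -0.95, -1.30, -1.47 and -0.76 under the first 3 and the lineage rule, to -1.17 without the largest clone, and ran from -2.29 to 1.97 with 1 mouse left out. Partner differences ran from -0.29 to 0.38 for cluster 0 (-0.53 with TRA), -0.12 to 0.38 for cluster 5 and -0.319 to 0.0193 for cluster 6. Between treatments the share in the largest clones ran from -17.5 to 1.39 and distinct clones from -0.92 to 14.1.

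Changes near 0 turned sign. Slfn5 gave -0.0818 in DESeq2, -0.0077 without the filter, -0.0108 with the replicate block, -0.0448 without cells of 2 TRB chains and -0.403 to 0.268 with 1 mouse left out. Gzmb gave -0.063 in G2M cells, -0.0057 without cells of 2 TRB chains, -0.209 without DF1 FALSE cells, -0.0012 without the largest clones and -0.236 to 0.268 with 1 mouse left out. Dbi gave -0.0226 in G2M cells, -0.0055 without the largest clones and -0.0177 to 0.1047 with 1 mouse left out. Pdcd1 gave -0.209 to 0.0351 with 1 mouse left out, and without DF1 FALSE cells Pclaf gave -0.259 and Hist1h1b -0.62. The cause of these shifts was not tested. With 156 cells in the smallest library, low genes are limited by depth.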

Other observations

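Of 7 tested dendritic cell genes 1 rose and none fell, and of 8 tested conventional CD4 genes 2 fell, Cd4 and Maf, and none rose. The dendritic cell gene was Itgax, which encodes the integrin CD11c of dendritic cells and of some effector T cells, with 7.04, 5.57 and 4.21 CPM in anti-ACBP mice and 2.32, 1.32 and 1.68 CPM in isotype mice (log2 fold change 1.62, adjusted p = 0.035, edgeR), while Flt3 and Clec9a were at 0. S1pr1, the receptor for tissue exit, had 8.35, 9.51 and 5.79 CPM in anti-ACBP mice and 4.64, 4.61 and 4.49 CPM in isotype mice. Its log2 fold change of 0.78 ± 0.26 did not pass in cycling cells (adjusted p = 0.20), and that of 1.25 in other CD8 T cells did (adjusted p = 0.017). The difference in change for S1pr1 was -0.42 (adjusted p = 0.70).

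Medians of the division lists were set beside those in other CD8 T cells. The median log2 fold change of mitosis genes was -0.08 in cycling and -0.35 in other CD8 T cells, that of replication genes was 0.08 in cycling and -0.23 in other, and that of histone genes was 0.01 in cycling and -0.47 in other. Of the other CD8 T cells, 2967 of 3744, 1309 of 1652 and 1861 of 2355 were called G1 in anti-ACBP mice. In isotype mice 2625 of 3354, 1287 of 1915 and 1633 of 2403 were. The part of this phase mix in the medians of other CD8 T cells was not tested. Without the DF1 FALSE cells the medians in cycling cells were -0.35 for mitosis, 0.08 for replication and -0.48 for histone genes, so that those for mitosis and histone genes lay at the values of the other CD8 T cells. They rest on as few as 34 cells in a mouse, and the share of S phase in the cells left differed between the groups, as given above. No test of these medians was made.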
